A study of Mus musculus with 6 samples.

Results

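The extracellular matrix genes described here are 56 genes for collagens, proteoglycans and matricellular proteins, chosen by gene name. The choice was made with earlier results of these data known. The genes were followed in 2 mouse pheochromocytoma (PHEO) cell lines, tumor cells of the adrenal medulla. The MPC line came from Nf1 knock-out mice, and the faster-growing MTT line was established from liver metastases that MPC cells had formed. Both are single established lines that share the Nf1 background, no treatment is given for either, and RNA of 3 MTT and 3 MPC samples was read on 6 Affymetrix Mouse Gene 1.0 ST arrays, 1 sample an array. A gene was measured where a probe set, the group of probes that reads 1 transcript unit, was annotated with 1 gene symbol and no other, and the brightest was taken where a gene had several. Of the 56 genes 55 had such a probe set, each gene exactly 1, among 19937 genes in all. Spp1, which encodes osteopontin, is not reported.

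The matrix around a cell is built from fibrous collagens, from proteoglycans, which are core proteins that carry long sulfated sugar chains, and from matricellular proteins, which bind to the others and signal more than they support. Hyalectans such as versican bind hyaluronan and carry chondroitin sulfate, and tenascin-R and the fibulins bind to them. Syndecans and glypicans carry heparan sulfate at the cell surface. Chromaffin cells descend from the neural crest, as do sympathetic neurons. Hyalectans and tenascin-R are abundant in the matrix of the central nervous system, which holds little fibrillar collagen.

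The gene starts of the 3 members with the largest increases in MTT cells and of the single member that fell are shown because they stand at the upper and lower ends of the differences described below. The sequences are RefSeq windows of build GRCm38.p6 (250 bases before the gene start to 50 after it), written 5′ to 3′ on the strand of the gene. Capitals mark the TATA box TATAAA, the CCAAT box CCAAT and the GC box GGGCGG on either strand. Vcan is at chr13:89742463-89742762 on the minus strand, Postn at chr3:54360857-54361156 on the plus strand (the second of 2 windows listed, chosen after both were seen because it holds a TATA box), Spock3 at chr8:62950982-62951281 on the plus strand (the first of 2) and Sdc4 at chr2:164443139-164443438 on the minus strand.
Vcan: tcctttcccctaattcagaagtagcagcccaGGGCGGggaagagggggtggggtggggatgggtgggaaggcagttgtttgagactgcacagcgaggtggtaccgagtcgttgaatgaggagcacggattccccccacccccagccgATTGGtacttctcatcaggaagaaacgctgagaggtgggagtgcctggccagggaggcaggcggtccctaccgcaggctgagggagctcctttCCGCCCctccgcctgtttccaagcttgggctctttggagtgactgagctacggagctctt
Postn: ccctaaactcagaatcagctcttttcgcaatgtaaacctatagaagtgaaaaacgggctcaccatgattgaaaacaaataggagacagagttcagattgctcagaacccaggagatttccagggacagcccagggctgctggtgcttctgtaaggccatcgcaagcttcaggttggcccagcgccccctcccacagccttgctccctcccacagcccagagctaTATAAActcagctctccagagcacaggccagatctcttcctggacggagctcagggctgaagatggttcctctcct
Spock3: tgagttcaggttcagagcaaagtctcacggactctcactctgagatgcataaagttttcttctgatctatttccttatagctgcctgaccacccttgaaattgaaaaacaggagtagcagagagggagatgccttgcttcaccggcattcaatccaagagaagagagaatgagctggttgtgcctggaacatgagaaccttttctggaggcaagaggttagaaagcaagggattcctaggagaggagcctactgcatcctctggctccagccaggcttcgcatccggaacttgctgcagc
Sdc4: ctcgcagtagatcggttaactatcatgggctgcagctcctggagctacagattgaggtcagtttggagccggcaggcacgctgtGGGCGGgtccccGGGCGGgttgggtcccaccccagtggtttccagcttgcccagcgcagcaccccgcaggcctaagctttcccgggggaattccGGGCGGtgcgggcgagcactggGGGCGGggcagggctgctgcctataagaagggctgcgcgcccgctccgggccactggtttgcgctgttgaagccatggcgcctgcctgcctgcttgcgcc
The Sdc4 window holds 4 GC boxes and 22 CpG dinucleotides, and the Vcan window holds 2 GC boxes, 1 CCAAT box and 12 CpG. The Postn window has no GC box and 5 CpG, with a TATA box whose first base lies at position -26, counted back from the gene start. The first Postn window, not shown, holds a CCAAT box and no TATA box, so this description applies to the window shown. The Spock3 window has none of the 3 motifs and 4 CpG. The second Spock3 window, not shown, also has none of the 3 motifs but holds 7 CpG. Of all 32851 RefSeq windows, 35.7% hold a GC box, 37.4% a CCAAT box and 13.6% a TATA box, and the median number of CpG is 7. The AP-1 site TGACTCA, the cyclic AMP element TGACGTCA and the E-box CACGTG, searched on both strands as well, are in none of the 4 windows (5.2%, 1.79% and 7.15% of all windows hold them), and none of the 6 motifs overlaps another here. A match of letters is a description of the window and not a site.

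All values are log2 signals of the RMA method, in which a difference of 1 is a 2-fold difference, and lines were compared with limma, a linear model whose variances are moderated over all genes, with p-values adjusted by Benjamini-Hochberg over 19937 genes and a threshold of 0.05. At that threshold 7.87% of all genes differed between the lines, 3.93% higher and 3.94% lower in MTT cells. The arrays give no detection call, so a low signal is not shown to lie above background. As a check of the label, 38 measured markers of 6 cell types other than chromaffin cells (fibroblasts, endothelium, macrophages, hepatocytes, adrenal cortex and Schwann cells) had mean signals of 4.32 to 9.02 and 9 chromaffin markers such as Th and Dbh 9.54 to 13.49. Signals of different probe sets are not on a common scale, so these ranges set no background level. Of the 9 chromaffin markers, 3 passed (33.3%). Slc18a1 and Gata3 were higher in MTT cells, with log2 differences of 0.27 and 0.19, and Chgb was lower, with -0.15. The calls of Gata3 and Chgb each ended in 5 of 6 fits that left out 1 array. Of the 38, only Thy1 passed, a surface protein of fibroblasts that neurons also carry, with 8.11 ± 0.03 over the MTT arrays and 8.61 ± 0.09 over the MPC arrays. The mean over the 10 fibroblast markers was 7.02 to 7.08 across MTT samples and 7.07 to 7.12 across MPC samples, and its part in the matrix results was not tested. In such bulk samples fewer cells that express a gene and less RNA per cell cannot be told apart. The methods call the 3 MTT samples separate, without saying whether cultures or preparations were, and do not describe the MPC samples, so the spread behind the p-values may be technical. Means are given ± SD (n = 3 arrays a line).

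Of the 55 matrix genes, 8 were higher and 1 was lower in MTT cells, 16.4% of them against 7.87% of all genes. The genes were chosen with earlier results of these data known, so this share is not a test of an excess. The 8 were Vcan, Postn, Spock3, Tnr, Spock1, Ncan, Fbln2 and Fn1, and the 1 was Sdc4. The median log2 difference of the 55 genes was 0.00 and that of all genes -0.01, and the median size of the difference was 0.06 against 0.05. The arrays of the lines did not overlap for 16 of the 55 genes (29.1%, against 27.2% of all genes), with MTT above for 10 (11.7% of all genes) and below for 6 (15.4% of all genes). Of the 55, 35 had a mean signal at or below the median of all genes, 8.28, among them Vcan and 11 of the 14 collagen chains.

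**Figure D1:**
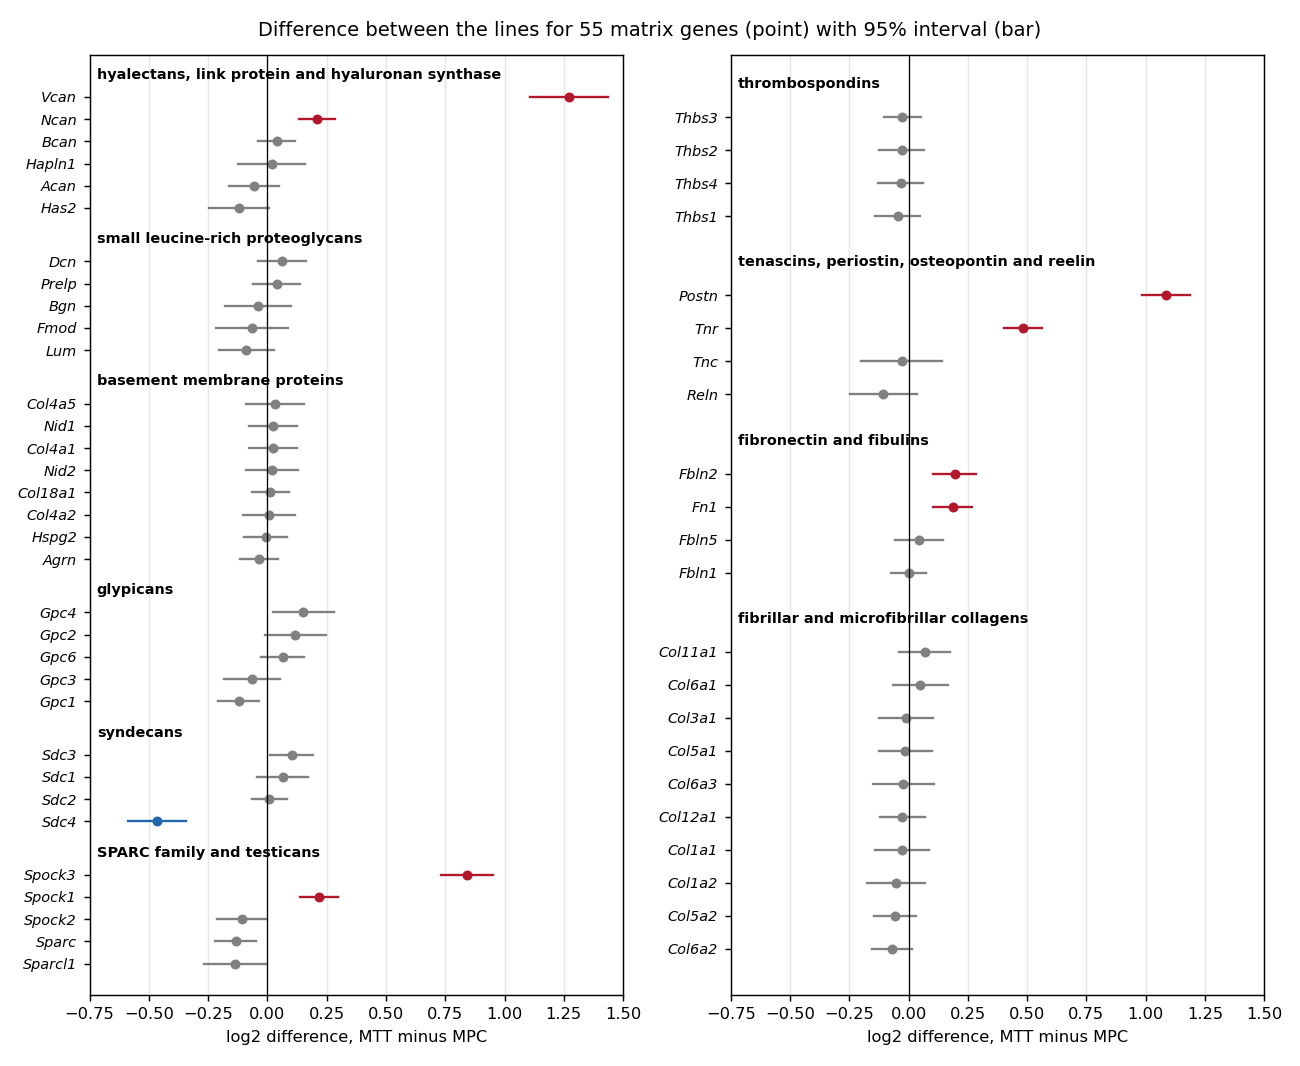
Difference in log2 RMA signal between MTT and MPC cells (horizontal axis, MTT minus MPC) for the 55 measured matrix genes, grouped by kind of protein. Points are differences of means of 3 arrays each and bars 95% intervals from limma; genes past the threshold are red where MTT was higher and blue where it was lower. Vcan lies at 1.27 and Sdc4 at -0.46, while the 14 collagen chains lie between -0.07 and 0.07.

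Of the 4 hyalectans, the hyaluronan-binding proteoglycans, 2 passed as higher in MTT cells, as 3.93% of all genes did, and 2 did not pass. So few genes do not describe the class. Vcan, which encodes versican, read 8.27, 8.29 and 8.31 on the MTT arrays and 6.92, 7.20 and 6.93 on the MPC arrays. All MTT arrays lay above all MPC arrays, and the wider spread was within MPC cells, where replicate 2 was the highest. The log2 difference was 1.27 (95% interval 1.11 to 1.44, limma adjusted p = 3.13e-05), a 2.42-fold higher signal that ranked 9 among the increases of all genes. Without a detection call the MPC mean of 7.02 is not shown to lie above background, so this fold and rank describe the measured signals and not the change of the transcript.
Ncan, the neural hyalectan neurocan, read 9.37, 9.40 and 9.35 on the MTT arrays and 9.14, 9.15 and 9.19 on the MPC arrays. The lines did not overlap, and the difference of 0.21 was a 1.15-fold change (limma adjusted p = 0.0077). Acan and Bcan, which encode aggrecan and brevican, had differences of -0.06 and 0.04 that did not pass, at mean signals under 7.4. Has2, a synthase of hyaluronan, read 5.86 ± 0.06 over the MTT arrays and 5.98 ± 0.09 over the MPC arrays, and did not pass either.

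Vcan maps to chromosome 13, where signals were shifted upwards in MTT cells: 33.9% of its 735 genes tested were higher and 1.63% lower, and the median difference was 0.08 over all of them and 0.20 over the 368 above the median signal, to which Vcan does not belong. Hapln1, the link protein that fixes versican to hyaluronan, is the gene tested next to Vcan on one side. It read 5.86, 5.82 and 6.04 on the MTT arrays and 5.95, 5.87 and 5.85 on the MPC arrays, which overlap (difference 0.02, 95% interval -0.12 to 0.16). Edil3, which encodes a secreted integrin-binding protein and lies next after Hapln1, rose by 0.79 on the log2 scale (limma adjusted p = 3.5e-05). On the other side Xrcc4 and Tmem167 had differences of 0.10 and 0.15 and did not pass. Of the 20 nearest genes tested, 10 on each side, 9 were higher and none lower at this threshold, with a median of 0.15 and a range of -0.11 to 0.79. The measured difference of Vcan was above those of these 20 genes, a comparison that was not tested. After the median deviation of each chromosome's genes was subtracted on every array, Vcan kept a difference of 1.17 (limma adjusted p = 2.99e-05).

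**Figure D2:**
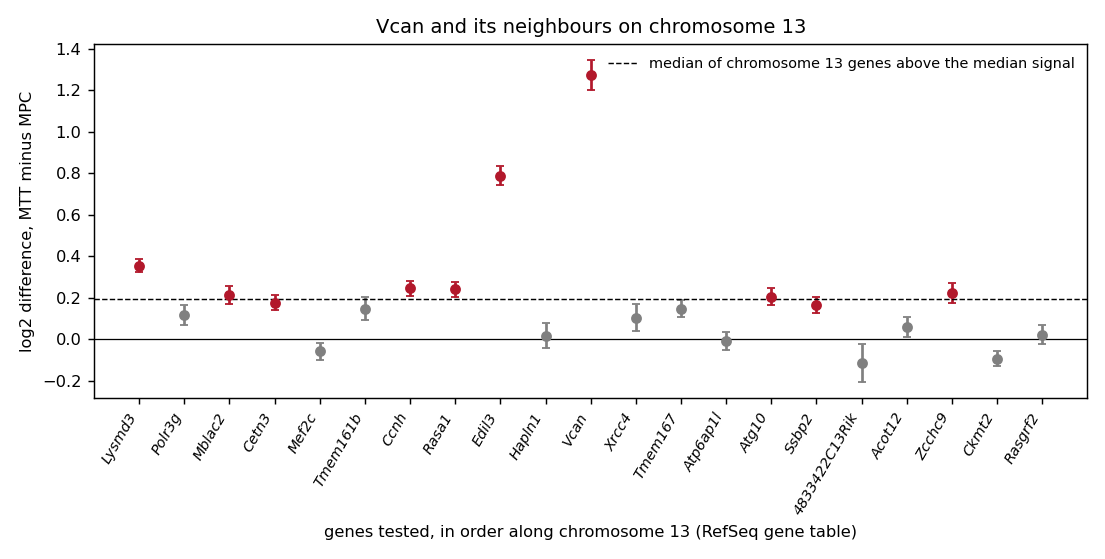
Difference in log2 RMA signal between MTT and MPC cells (vertical axis, MTT minus MPC) for Vcan and the 10 genes tested on either side of it, in their order along chromosome 13 (horizontal axis, evenly spaced). Points are differences of means of 3 arrays each, bars 1 standard error, red marks genes past the threshold, and the dashed line is the chromosome's median of 0.20 for genes above the median signal. Vcan at 1.27 and Edil3 at 0.79 stand furthest above the line, and Hapln1 between them lies at 0.02. Several other genes, such as Lysmd3 at 0.35, also lie above it.

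Of the matricellular proteins among the members, periostin changed most. Postn encodes this ligand of integrins and collagen, found in tissue under repair and in tumor stroma. It read 11.09, 10.99 and 10.95 on the MTT arrays and 9.88, 9.93 and 9.96 on the MPC arrays. All MTT arrays lay above all MPC arrays by more than the spread within either line. The difference was 1.09 (95% interval 0.98 to 1.19, limma adjusted p = 9.38e-06), a 2.12-fold higher signal that ranked 16 among all increases. Vcan and Postn were the members whose measured signals rose at least 2-fold, as those of 0.0853% of all genes did at this threshold.
Tnr, which encodes the neural tenascin-R, a binding partner of the hyalectans, read 10.91, 10.89 and 10.94 on the MTT arrays and 10.45, 10.46 and 10.39 on the MPC arrays. The lines were well apart, and the difference was 0.48 (95% interval 0.40 to 0.56, limma adjusted p = 0.000123). The other tenascin among the members, Tnc, known from wounds and tumor stroma, read 6.74 ± 0.01 over the MTT arrays and 6.77 ± 0.17 over the MPC arrays. That is a difference of -0.03 with a 95% interval of -0.20 to 0.14. Reln, which encodes the neuronal guidance protein reelin, had a difference of -0.11 and did not pass.

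Spock genes encode testicans, secreted proteoglycans of the SPARC family known mainly from brain. Spock3 read 10.64, 10.78 and 10.76 on the MTT arrays and 9.94, 9.85 and 9.85 on the MPC arrays. The lines did not overlap, and the difference of 0.84 (95% interval 0.73 to 0.95, limma adjusted p = 3.45e-05) was a 1.79-fold change. Spock1, bright in both lines, read 12.29, 12.23 and 12.23 on the MTT arrays and 12.01, 12.02 and 12.06 on the MPC arrays. Its difference of 0.22 (limma adjusted p = 0.00797) stands beside a median of 0.20 for the genes of chromosome 13 above the median signal, as Spock1 is, and of 0.08 for all its genes. Once the chromosome medians were subtracted the difference was 0.11 and did not pass (limma adjusted p = 0.108). Its nearest neighbors tested were Trpc7 and Klhl3, with differences of -0.15 and -0.06 that did not pass, and beyond them Smad5 and Hnrnpa0, each higher by 0.22.
Spock2 had a difference of -0.11 and did not pass, at 9.78 ± 0.05 over the MTT arrays and 9.89 ± 0.07 over the MPC arrays (limma adjusted p = 0.229). Sparcl1, its relative in brain and vessels, had a difference of -0.14 at signals near 7 (limma adjusted p = 0.225). Sparc, the collagen-binding founder of the family, read 10.54, 10.56 and 10.50 on the MTT arrays and 10.72, 10.64 and 10.64 on the MPC arrays. The lines did not overlap, but the difference of -0.13 missed the threshold (limma adjusted p = 0.0773), and it passed when limma modelled the variance as a trend of the signal (adjusted p = 0.0163) or tested only genes above the median signal (adjusted p = 0.018).

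**Figure D3:**
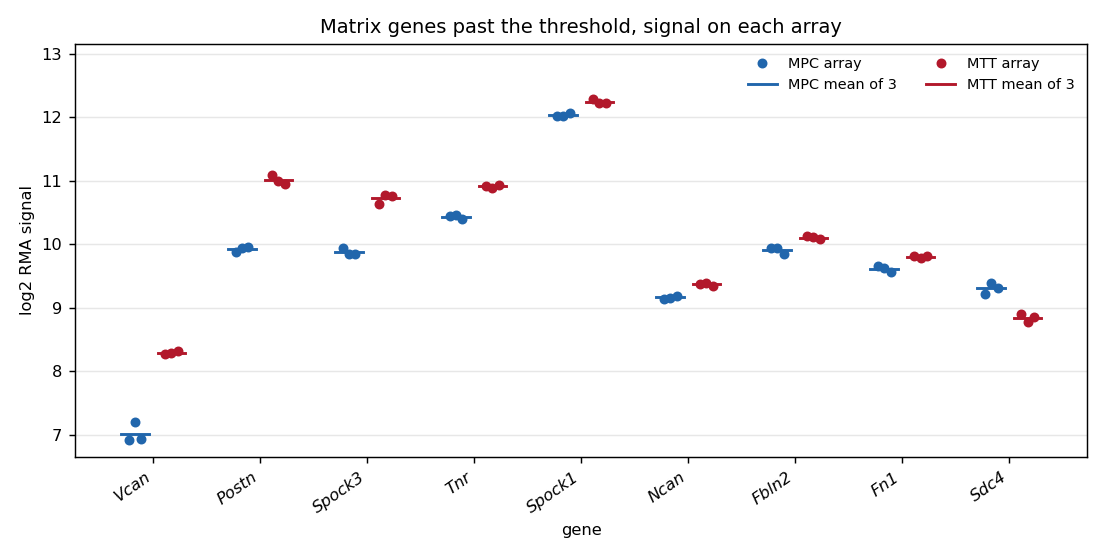
Signal on each array (vertical axis, log2 RMA) of the 9 matrix genes past the threshold (horizontal axis) on the 3 MPC arrays (blue) and the 3 MTT arrays (red). Each point is 1 array and each bar a mean of 3, and levels of different genes are not comparable. For each gene the arrays of the lines are apart: for Postn the MTT arrays read 10.95 to 11.09 and the MPC arrays 9.88 to 9.96, and for Sdc4 the MTT arrays lie lower.

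Fibronectin and fibulin-2 were slightly higher in MTT cells. Fn1, the adhesive glycoprotein bound by integrins and syndecans, read 9.81, 9.78 and 9.82 on the MTT arrays and 9.65, 9.63 and 9.57 on the MPC arrays. Fbln2, whose product binds fibronectin and versican, read 10.13, 10.11 and 10.08 on the MTT arrays and 9.94, 9.94 and 9.85 on the MPC arrays. Neither gene overlapped between the lines, and the differences of 0.19 for Fn1 (limma adjusted p = 0.0168) and 0.20 for Fbln2 (limma adjusted p = 0.021) were 1.14-fold and 1.15-fold changes. The call of Fn1 ended in 4 of 6 fits that left out 1 array and that of Fbln2 in 2, and both ended without moderation of the variances. Over all these alternative fits the highest adjusted p was 0.0654 for Fn1 and 0.084 for Fbln2. Fbln1 read 12.02 ± 0.01 over the MTT arrays and 12.02 ± 0.02 over the MPC arrays, a difference of 0.00 with a 95% interval of -0.07 to 0.07, and Fbln5, which serves elastic fibers, had a difference of 0.04.

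Of 4 syndecans at the cell surface, 1 was lower in MTT cells, as 3.94% of all genes were, and 3 did not pass. Sdc4, the syndecan of focal adhesions, which acts together with integrins on fibronectin, read 8.90, 8.77 and 8.85 on the MTT arrays and 9.22, 9.39 and 9.31 on the MPC arrays. All MTT arrays were below all MPC arrays, and Sdc4 had a log2 difference of -0.46 (95% interval -0.59 to -0.34, limma adjusted p = 0.00159), which leaves it at rank 94 among all decreases. Sdc1, Sdc2 and Sdc3 had differences of 0.06, 0.01 and 0.10 that did not pass. Of 5 glypicans, which are held in the membrane by a lipid anchor, none passed limma's test, and 2 had an unadjusted p under 0.05, as 20.5% of all genes did. Gpc1 read 10.65, 10.58 and 10.64 on the MTT arrays and 10.79, 10.74 and 10.71 on the MPC arrays. These do not overlap, but the difference of -0.12 missed the threshold (limma adjusted p = 0.0987) and passed in the same 2 fits as Sparc (adjusted p = 0.024 and 0.025). Gpc4 differed by 0.15 (limma adjusted p = 0.17) at signals under 6.6, and Gpc2, Gpc3 and Gpc6 had differences of 0.12, -0.07 and 0.06.

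Of 14 collagen chains measured, none was called by limma, in the alternatives run or at an unadjusted p under 0.05, the level reached by 20.5% of all genes and 15 of the 55 members. With 7.87% of all genes called, a count of 0 among 14 is near the background. Their differences ran from -0.07 for Col6a2 to 0.07 for Col11a1, and the 95% intervals of the 14 ran together from -0.18 to 0.17. The chains of the main fibrils were Col1a1, at 8.73 ± 0.05 over the MTT arrays and 8.76 ± 0.09 over the MPC arrays, Col1a2, at 8.28 ± 0.10 and 8.33 ± 0.05, and Col3a1, at 8.17 ± 0.05 and 8.18 ± 0.08. The mean signals of the 14 chains were 6.36 to 8.76 and are not shown to lie above background. Where a signal is mostly background such intervals do not bound the change of the transcript.
None of the remaining basement membrane proteins passed. Hspg2, which encodes perlecan, Agrn, which encodes agrin, and the nidogens Nid1 and Nid2, which link laminin to collagen IV, had differences of -0.01, -0.04, 0.02 and 0.02. Nid1 and the thrombospondin Thbs4 lie on chromosome 13 and had differences of 0.02 and -0.03 at signals near 7.1. None of 5 small leucine-rich proteoglycans, which bind collagen fibrils, passed limma's test, and none had an unadjusted p under 0.05. Their differences ran from -0.09 for Lum, which encodes lumican, to 0.06 for Dcn, which encodes decorin, with Bgn, Fmod and Prelp between them. The 4 thrombospondins (Thbs1, Thbs2, Thbs3 and Thbs4), glycoproteins that bind matrix and cell surface, had differences of -0.05 to -0.03, with none past the threshold or at an unadjusted p under 0.05.

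Genes that make, modify, bind or cut the matrix were read from 4 further lists, of which 97 of 102 genes were measured. Of these, 5 were higher and 6 lower in MTT cells, 11.3% in all against 7.87% of all genes, with a median difference of -0.01. The lists too were chosen with earlier results of these data known, so this share is not a test of an excess. The 6 lower genes were Chst15, Pcolce, Vldlr, Adamts1, Plod2 and Chst13, and the 5 higher genes Dsel, B4galt7, Ptprf, Adamts20 and Chsy1. Only Chst15 and Dsel passed in every alternative fit.
Of 48 genes of glycosaminoglycan synthesis, 3 were higher and 2 lower, 10.4% of them against 7.87% of all genes. Chst15, which adds the second sulfate of chondroitin sulfate E, read 8.89, 8.87 and 8.81 on the MTT arrays and 9.74, 9.76 and 9.57 on the MPC arrays. The log2 difference was -0.84 (95% interval -0.96 to -0.71, limma adjusted p = 7.8e-05), with no overlap between the lines. Dsel, related to the epimerase that turns chondroitin into dermatan sulfate, read 9.94, 9.95 and 9.84 on the MTT arrays and 9.60, 9.54 and 9.62 on the MPC arrays, a difference of 0.32 (limma adjusted p = 0.00324).
The other 3 were smaller. Chst13, a chondroitin 4-O-sulfotransferase, had a difference of -0.22, Chsy1, which polymerises chondroitin, one of 0.13, and B4galt7, which builds the linker, one of 0.24. The call of Chsy1 ended in all 6 fits without 1 array, and those of Chst13 and B4galt7 in 4 each. B4galt7 lies on chromosome 13 and did not pass once the chromosome medians were subtracted (difference 0.14, limma adjusted p = 0.194).

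**Figure D4:**
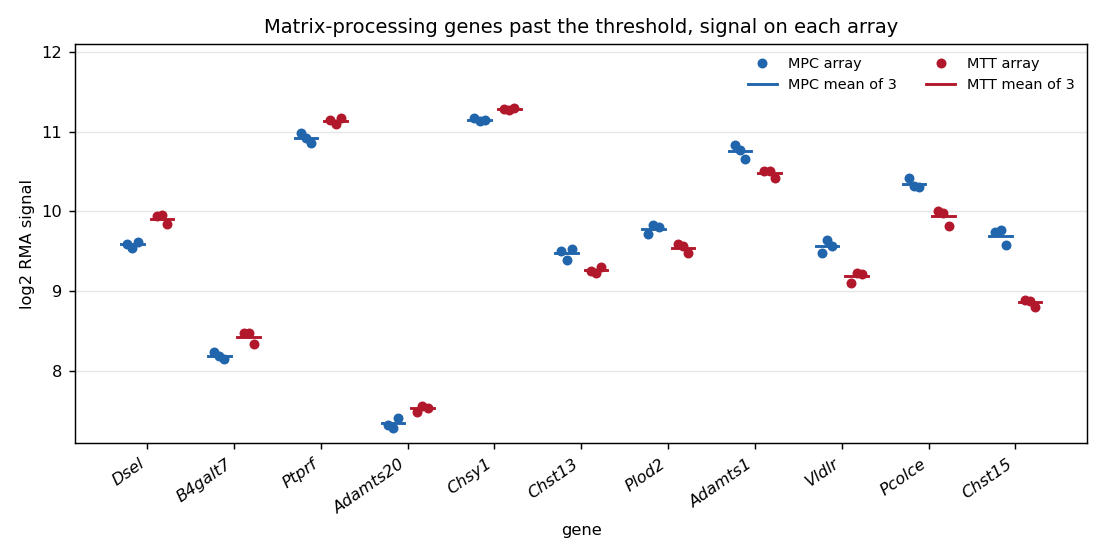
Signal on each array (vertical axis, log2 RMA) of the 11 genes past the threshold among genes that make, modify, bind or cut the matrix (horizontal axis) on the 3 MPC arrays (blue) and the 3 MTT arrays (red). Each point is 1 array and each bar a mean of 3, and levels of different genes are not comparable. Dsel, at the left, is higher in MTT cells by 0.32 and Chst15, at the right, lower by a difference of -0.84.

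Of 25 genes of collagen folding, processing and cross-linking, none was higher and 2 were lower. That is 8.0% of them against 7.87% of all genes, a share near the background. Pcolce, which speeds the trimming of procollagen, read 10.01, 9.99 and 9.81 on the MTT arrays and 10.42, 10.31 and 10.31 on the MPC arrays, and it fell by 0.41 (limma adjusted p = 0.0048). Plod2, which hydroxylates lysines of the collagen telopeptides for cross-links, fell by 0.24 (limma adjusted p = 0.0144). With ordinary variances neither gene passed (adjusted p = 0.0744 and 0.0882), and Plod2 did not pass without MPC replicate 2 either (adjusted p = 0.0577).
Of 16 matrix receptors 1 was higher and 1 lower, 12.5% of them against 7.87% of all genes, and so few genes do not describe the class. Vldlr, 1 of the receptors of reelin, fell by 0.38 (limma adjusted p = 0.00489), and Ptprf, the receptor phosphatase LAR, rose by 0.21 (limma adjusted p = 0.0181). Vldlr lies on chromosome 19, whose genes had a median difference of -0.06 in all and of -0.11 above the median signal, and its call held once chromosome medians were subtracted. Cd44, the main receptor of hyaluronan, read 6.70 ± 0.02 over the MTT arrays and 6.82 ± 0.04 over the MPC arrays and did not pass (limma adjusted p = 0.068).
Of 8 proteases and hyaluronidases, Adamts1, which cuts versican, fell by 0.28 (limma adjusted p = 0.0153), and Adamts20, of the same family, rose by 0.19 (limma adjusted p = 0.0343) at signals under 7.6. The call of Adamts1 ended without MTT replicate 3 and without MPC replicate 2, that of Ptprf in 3 and that of Adamts20 in 5 of the 6 fits without 1 array. None of Vldlr, Ptprf, Adamts1 and Adamts20 passed with ordinary variances.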

How the data were processed

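The 6 Affymetrix Mouse Gene 1.0 ST arrays, 3 for each line, were assigned by sample title. The labels give liver metastasis as the source of all 6 samples, and the methods describe RNA of MTT cells only. The authors deposited log2 signals after RMA (background subtraction, quantile normalization and probe set summary). The methods name Partek and R, the submitters' notes Affymetrix Expression Console, each without a version, and a genome build is not given in the sources used here. The array medians were 7.73 to 7.77. Of 34760 probe sets, 21640 had 1 symbol and were matched to the RefSeq table of GRCm38.p6, used for names, chromosomes and gene order. Lines were compared in R 4.3.3 with limma 3.58.1, tested on simulated data, two-sided; figures used matplotlib 3.10.9. Members and lists were chosen with earlier results of these data known. The rule names each measured member, list genes past the threshold and the 2 genes on either side of a called member of chromosome 13 or 19. Th, Dbh and Cd44, which did not pass, are named outside this rule. Alternatives were ordinary variances (the methods' analysis of variance), a mean-variance trend, a replicate block, mean probe sets, genes above the median signal, 2 normalizations, chromosome medians removed and leaving out each array. The number of arrays limits the precision.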

Additional observations from a re-analysis of the deposited data

How the results depend on the processing

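Of the 9 matrix genes past the threshold, 6 passed in every alternative in which they were tested (Vcan was too dim for the fit of genes above the median signal), and 2 genes not past it, Gpc1 and Sparc, passed in 2. Without moderation of the variances 824 genes passed in all, and 3 genes of the 4 further lists were higher and 1 lower. With a mean-variance trend 2416 genes passed, and 3 members were lower, as also among genes above the median signal. In fits without 1 array, 891 to 1276 genes passed, 6 to 8 members were higher and 1 was lower, and of the further lists 1 to 4 genes were higher and 4 to 6 lower. Smaller residual degrees of freedom come with leaving out an array; otherwise the cause was not tested. The main fit did not pair the lines by replicate number. Deviations of same-numbered arrays correlated at 0.116, 0.074 and 0.249, and each array correlated best with its own number. These values do not settle whether the numbers mark pairs. With the replicate number as a block 1501 genes, 8 higher members and 1 lower member passed, and 4 genes of the further lists were higher and 6 lower. In that fit the calls of Chsy1, Mfap3 and the chromaffin marker Gata3 ended (limma adjusted p 0.0689 for Chsy1 and 0.0501 for Mfap3). Without detection calls, little can be said of dim genes.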

Other observations

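Matrix genes outside the 56 were read after the results above were known, by family name. Of 30 further collagen chains, Col23a1, a transmembrane collagen, fell by 0.23 on the log2 scale (limma adjusted p = 0.0219), and none was higher. It did not pass in 4 of 6 fits without 1 array. It was also the only 1 of the 30 with an unadjusted p under 0.05, a level that 20.5% of all genes reached. The single call is 3.33% of the 30 chains, against 7.87% of all genes called. Of 53 genes of other matrix families, 4 were higher and 3 lower, 13.2% against 7.87% of all genes. Efemp1, which encodes fibulin-3, averaged 9.64 ± 0.05 (SD, n = 3) over the MTT arrays and 10.77 ± 0.02 over the MPC arrays, a difference of -1.13 (limma adjusted p = 4.53e-06), a larger difference than that of any of the 4 fibulin and fibronectin genes above. Smoc1, of the SPARC family like the testicans, averaged 8.19 ± 0.08 over the MTT arrays and 7.32 ± 0.03 over the MPC arrays, a difference of 0.87 (limma adjusted p = 2.62e-05), while its relative Smoc2 fell by 0.17. Matn2, a matrilin, rose by 0.38, Ltbp4, which binds latent TGF-beta, by 0.30 and Mfap3 by 0.18. Tgfbi, a matricellular relative of periostin near Spock1 on chromosome 13, fell by 0.24 (limma adjusted p = 0.0211), against the direction of that chromosome. The calls of Smoc2 and Tgfbi ended in 4 and 3 of the 6 fits without 1 array and that of Mfap3 in all 6.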
